A study of Mus musculus with 2 samples.

Results

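The genes described here encode the content of hormone granules and the machinery that releases it. They comprise 35 of the 28692 genes in the count matrices and were chosen by symbol for their known roles. Mouse pancreatic islets were dissociated with TrypLE and sequenced as single cells with a 10x 3′ kit, in 1 library from flox/flox mice and 1 library labelled BcBKO, each from islets pooled from at least 3 mice. The series describes BcBKO as an ablation restricted to beta cells and names Pdx1-cre mice, whose Cre recombinase follows the Pdx1 promoter, active in pancreatic progenitors and later mainly in beta cells. The title names BAF60C, the chromatin-remodelling subunit encoded by Smarcd3, and type 2 diabetes. Whether the flox/flox mice carried Cre, and the age and sex of the mice, are not given in the sources used here. Smarcd3 had 45 UMIs in beta cells of the flox/flox library (0.374 CPM) and 71 in the other (0.610 CPM), where UMIs are counted RNA molecules and CPM is the UMIs of a gene per 1000000 UMIs of the cell class. Smarcd3 was thus not lower under the BcBKO label, and each statement about that library names it as labelled. Which exons were deleted is not given in the sources used here, and a 3′ tag outside them would check nothing.

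Endocrine cells store peptide hormones in dense-core granules. Granins help to form the granule, prohormone convertases and carboxypeptidase E cut the precursors, and an amidating enzyme finishes some peptides. Granules then dock through Rab GTPases and their effectors, and fuse when SNARE proteins assemble under the control of synaptotagmins, which sense calcium. Most of these steps are served by several related genes, so a cell type can be described by the isoform it uses. The share of an isoform in the UMIs of its family does not depend on how a library is scaled or on how much of a cell's RNA is hormone. Kits that tag the 3′ end count 1 UMI per molecule, so no correction for gene length was applied. Capture can still differ between genes, and shares are therefore compared between cell classes.

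Cells were assigned by hormone and marker UMIs. Beta cells had at least 25% of UMIs from Ins1 and Ins2, alpha cells at least 10% from Gcg and delta cells at least 5% from Sst. These rules gave 2750 and 3058 beta cells, 377 and 634 alpha cells and 242 and 308 delta cells, in the flox/flox library first and in the library labelled BcBKO second, an order kept throughout. Median depths were 38461.5 and 33171.5 UMIs in beta cells, 13884 and 11138.5 in alpha cells and 9807 and 8410 in delta cells. Markers outside the rule matched the names. The alpha-cell factor Irx1 was at 87.4 and 98.2 CPM in alpha cells and 0.0915 and 0.258 CPM in beta cells. The delta-cell factor Hhex was at 208 and 282 CPM in delta cells and 0.649 and 1.92 CPM in beta and 2.60 and 14.7 CPM in alpha cells. The beta-cell peptide Ucn3 was at 243 and 252 CPM in beta, 11.3 and 13.1 CPM in alpha and 13.7 and 15.5 CPM in delta cells. The delta class also held 5.03% and 5.30% Ppy UMIs and the alpha class 3.09% and 2.67%, so neither is free of pancreatic polypeptide RNA. The libraries shared 23 barcodes. With 1 library per group there is no replicate error and no test, and every interval is an exact or log-normal 95% interval for counting error alone.

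The proteins that set granule content were among the most abundant members, and each endocrine type had its own granin profile. Chga (chromogranin A) was at 2696 and 2570 CPM in beta, 3439 and 3178 in alpha and 2630 and 2204 in delta cells. It made up 40.7% and 37.7% of the 5 granins counted in beta cells, 50.2% and 48.9% in alpha cells and 24.5% and 22.3% in delta cells. Alpha cells were thus the class in which Chga led most clearly.

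Chgb (chromogranin B) marked delta cells. It was at 359.7 and 453 CPM in beta, 513 and 541 in alpha and 2733 and 2702 in delta cells, where it was 7.60-fold (interval 7.41 to 7.79) and 5.96-fold (5.82 to 6.1) over beta. Its share of the granins was 25.4% and 27.3% in delta cells against 5.43% and 6.66% in beta and 7.5% and 8.32% in alpha cells.

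Scg2 (secretogranin II) separated alpha cells from the other types. Its levels were 2596 and 2730 CPM in beta, 1074 and 1039 CPM in alpha and 3554 and 3248 CPM in delta cells. Its share was 39.2% and 40.1% in beta, 15.7% and 16.0% in alpha and 33.0% and 32.9% in delta cells. In beta cells Chga and Scg2 were close, and which of them led differed between the libraries. In delta cells Scg2 led in both.

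Scg5, which encodes the 7B2 chaperone that PC2 needs to mature, took 19.6% and 19.3% of granin UMIs in alpha cells. It took 8.16% and 8.49% in beta and 11.2% and 10.9% in delta cells. Scg3, a granin that binds membrane cholesterol, stayed between 5.93% and 7.46% in all endocrine classes and both libraries, the narrowest range of the granins.

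The convertases were also used unequally. Pcsk1 (chromosome 13, 75089826 to 75134861 in GRCm38, as are the gene positions that follow) encodes PC1/3, which cuts proinsulin together with PC2, the product of Pcsk2 and the enzyme that makes glucagon. Pcsk1 was at 87.5 and 109 CPM in beta, 4.27 and 10.9 in alpha and 38.8 and 27.0 in delta cells. Its share of the Pcsk1 and Pcsk2 UMIs was 6.20% (6.08 to 6.31) and 6.57% (6.46 to 6.68) in beta cells, 0.129% (0.0817 to 0.193) and 0.309% (0.246 to 0.383) in alpha cells, and 1.35% (1.10 to 1.64) and 0.970% (0.770 to 1.21) in delta cells. Delta cells thus lay between the other types, and Pcsk2 supplied most UMIs in every class.

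Insulin genes gave 1.97% and 2.61% of alpha UMIs and 2.65% and 3.16% of delta UMIs, a measure of beta-cell RNA free in the droplets. Beta-cell RNA in proportion to that insulin would amount to 62.7% and 42.1% of the alpha-cell and 9.30% and 20.5% of the delta-cell Pcsk1 level. With beta-cell RNA subtracted in proportion to insulin, the Pcsk1 share was 0.0487% and 0.182% in alpha cells and 1.25% and 0.795% in delta cells. In cells thinned to 5000 UMIs, 32.6% and 39.6% of beta, 1.49% and 3.29% of alpha and 13.7% and 13.0% of delta cells held a Pcsk1 UMI, and so did 5.36% and 7.14% of endothelial cells, which should lack it. Without thinning those shares were 92.2% and 91.5%, 6.1% and 9.46%, 26.4% and 20.1%, and 6.11% and 8.13% of cells, the last at median depths of 4293 and 3941.5 UMIs. The alpha-cell share lay below the endothelial one, so no expression in alpha cells is read from it, and the delta-cell share lay above it. Endothelial cells also held more insulin, at 4.22% and 4.61% of UMIs, and the part of free RNA in the alpha-cell level was not tested.

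Pcsk2 itself was at 1325 and 1548 CPM in beta, 3311 and 3513 in alpha and 2840 and 2759 in delta cells. Pcsk1n, whose product proSAAS inhibits PC1/3, had the same order of classes at 1237 and 1223, 3863 and 3739, and 2764 and 2383 CPM. Both were highest in alpha cells, where Pcsk1 was lowest, and stayed higher in alpha than in beta cells under 3 other scalings, whereas their excess in delta over beta cells turned under all 3.

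Cpe (carboxypeptidase E, which trims basic residues after cutting) was at 750.4 and 852 CPM in beta, 1539 and 1524 in alpha and 1059 and 1093 in delta cells. Pam, the amidating enzyme, was at 158 and 211, 523 and 531, and 570.0 and 582 CPM in the same order. Both were lowest in beta cells on this scale, which includes the hormone UMIs, but the excess of Cpe in delta cells turned under 3 other scalings and that in alpha cells did so in the library labelled BcBKO.

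Granin and convertase genes are a known setting for the cyclic AMP response element (CRE), the palindrome TGACGTCA that CREB-family factors bind, so their promoters were searched in the RefSeq table for GRCm38.p6. The table held 24 of the 35 genes with 29 promoters of 300 bases, from 250 before to 50 after each start. The palindrome was in 3 of these 29 promoters (10.3%), those of Chgb, Scg2 and Pcsk1, and in 588 of 32851 promoters of the table (1.79%). The shorter element TGACG, on either strand and including each palindrome, was in 14 of 29 (48.3%) and in 20.8% of all promoters. The 110 bases before the RefSeq start are shown for the 3 genes with the palindrome and for Chga and Pcsk2, a granin and a convertase that hold the shorter element there without it, as Scg3 also does. They are chr2:132781532-132781641 (plus strand) for Chgb, chr1:79440027-79440136 (minus strand) for Scg2, chr13:75089747-75089856 (plus) for Pcsk1, chr12:102554831-102554940 (plus) for Chga and chr2:143546023-143546132 (plus) for Pcsk2. Capitals mark the palindrome in the first 3 and the shorter element, on the strand where it was found, in the last 2.
Chgb: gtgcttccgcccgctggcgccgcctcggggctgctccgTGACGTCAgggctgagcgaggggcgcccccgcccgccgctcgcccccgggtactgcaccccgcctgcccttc
Scg2: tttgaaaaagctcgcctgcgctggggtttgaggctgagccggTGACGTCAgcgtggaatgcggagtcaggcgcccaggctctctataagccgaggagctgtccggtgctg
Pcsk1: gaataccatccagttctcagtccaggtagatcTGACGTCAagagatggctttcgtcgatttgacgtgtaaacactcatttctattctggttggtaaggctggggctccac
Chga: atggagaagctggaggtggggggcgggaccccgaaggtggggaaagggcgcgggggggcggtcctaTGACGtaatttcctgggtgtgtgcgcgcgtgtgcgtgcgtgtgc
Pcsk2: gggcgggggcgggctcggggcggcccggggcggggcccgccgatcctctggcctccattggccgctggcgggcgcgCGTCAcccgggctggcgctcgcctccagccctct

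The palindrome began 72 bases before the start in Chgb, 68 in Scg2 and 78 in Pcsk1. The shorter element began 44 bases before the start in Chga and 34 in Pcsk2. GENCODE gene models of Chgb, Scg2 and Pcsk1 begin further upstream than the RefSeq starts used. The palindromes of Chgb and Scg2 therefore lie inside those gene models, whereas that of Pcsk1 lies before its model. The 3 genes were not alike across classes, since Chgb was highest in delta cells, Scg2 was low in alpha cells and Pcsk1 was highest in beta cells. A match is a description of letters and was not tested for binding.

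**Figure D1:**
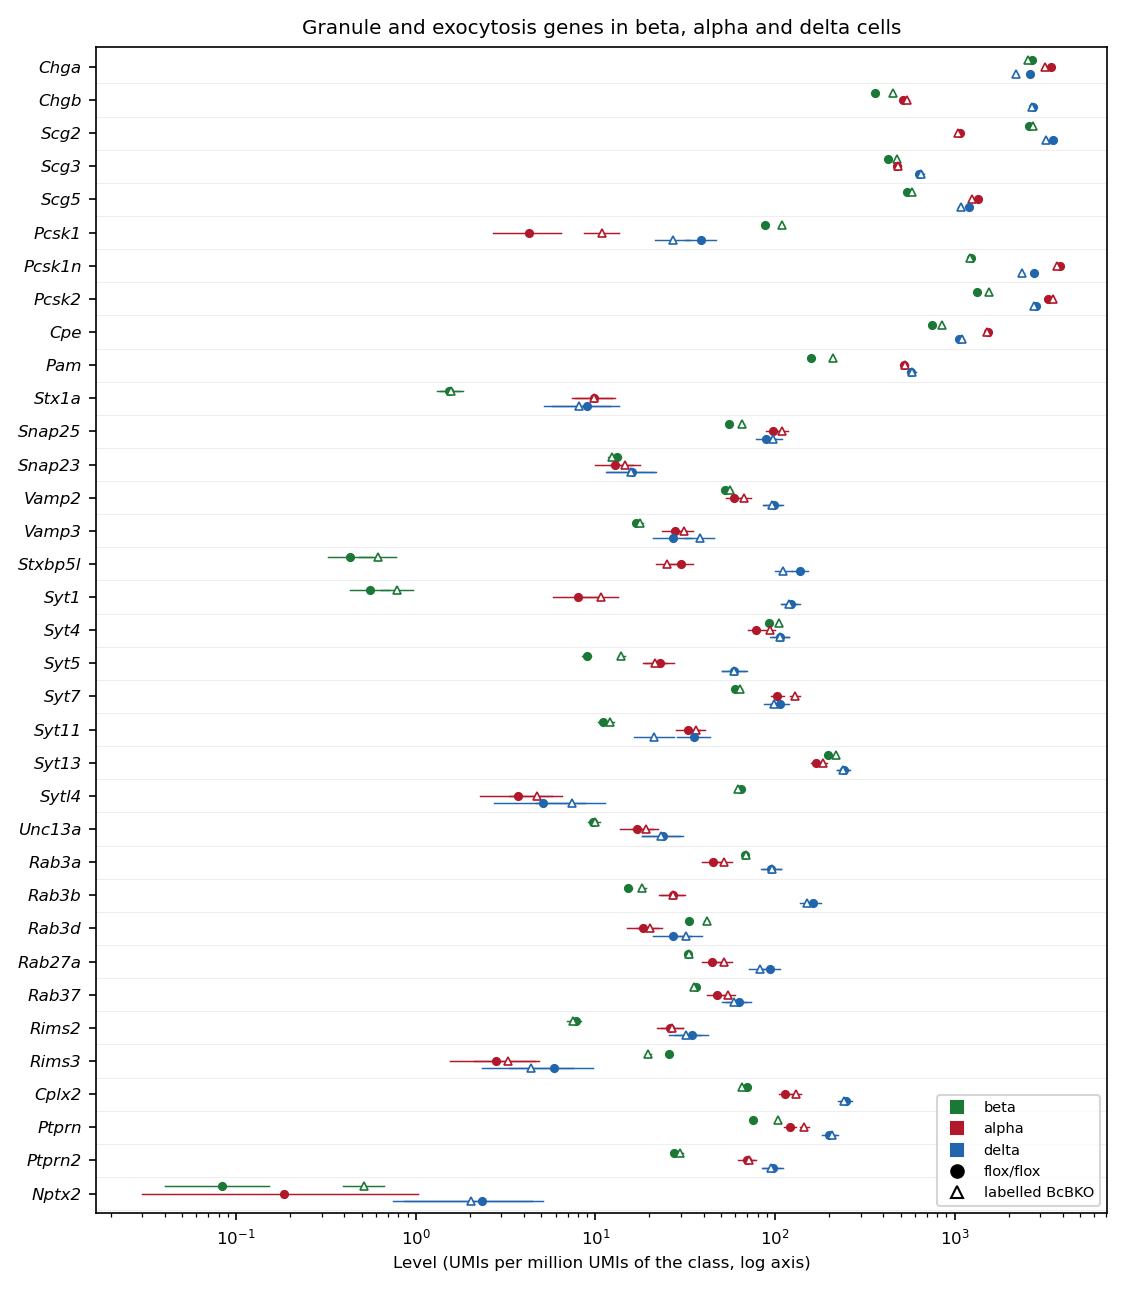
Levels of the 35 genes in CPM (log axis) in beta (green), alpha (red) and delta (blue) cells, with filled circles for the flox/flox library, open triangles for the library labelled BcBKO and bars for exact 95% Poisson intervals. Chgb, Stxbp5l, Syt1 and Rab3b stand to the right in delta cells, and Pcsk1, Sytl4 and Rims3 stand to the right in beta cells. A class without a UMI (Nptx2 in alpha cells labelled BcBKO) has no point.

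The RIM pair had the largest difference in share between endocrine classes among the 26 isoforms compared. Rims2 (chromosome 15, 39198261 to 39684372) encodes a RIM protein that ties granules to calcium channels at the release site. Rims3 (chromosome 4, 120854816 to 120896579) is a separate gene for a shorter RIM protein, to which that role is not ascribed here. Rims3 was at 25.6 and 19.6 CPM in beta, 2.78 and 3.28 in alpha and 5.87 and 4.39 in delta cells, whereas Rims2 was at 7.76 and 7.47, 26.2 and 26.8, and 34.4 and 31.8 CPM. Rims3 gave 76.7% (75.4 to 78.0) and 72.4% (70.8 to 74.0) of their UMIs in beta cells, 9.62% (5.48 to 15.4) and 10.9% (7.19 to 15.7) in alpha and 14.6% (8.39 to 22.9) and 12.1% (6.63 to 19.9) in delta cells. Beta cells thus had mostly Rims3 and the other types mostly Rims2. The Rims3 values rest on 15 and 25 UMIs in alpha and 15 and 13 in delta cells. In endothelial cells with under 1% each of Gcg, Sst and Ppy, Rims3 was at 4.66 and 2.92 CPM. The alpha-cell level lay near that and the delta-cell level only slightly above it. No Rims3 expression in alpha or delta cells is therefore read from these levels, and the part of free RNA was not tested. The ratio of Rims2 to Rims3 UMIs was 31.0-fold (18.1 to 53.0) and 21.5-fold (14.1 to 32.7) higher in alpha than in beta cells, and 19.3-fold (11.1 to 33.6) and 19.0-fold (10.6 to 34.1) higher in delta than in beta cells. No difference between delta and alpha cells was detectable at this depth, with delta to alpha ratios of 0.624 (0.291 to 1.34) and 0.886 (0.434 to 1.81).

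The Rab3 GTPases, which bring granules to the membrane, changed leader in delta cells. Rab3b (chromosome 4, 108879063 to 108943324) was at 15.3 and 18.2 CPM in beta, 26.9 and 26.9 in alpha and 164 and 151 in delta cells. It took 57.2% (53.5 to 60.8) and 54.0% (50.5 to 57.4) of Rab3a, Rab3b and Rab3d UMIs in delta cells, 29.8% and 27.1% in alpha and 13.1% and 14.1% in beta cells. Among these genes Rab3a led in beta cells with 58.3% and 53.7% and in alpha cells with 49.8% and 52.6%. Rab3c, which is not a member and is left out of these shares, was at 42.7 and 40.3 CPM in alpha cells. That is above Rab3b there, so the alpha-cell shares hold for the listed genes alone. Rab3d was ordered opposite to Rab3b, with 28.6% and 32.2% in beta, 20.4% and 20.2% in alpha and 9.44% and 11.5% in delta cells. Rab3b had 10.7-fold (9.61 to 11.9) and 8.28-fold (7.46 to 9.17) more CPM in delta than in beta cells, and 1.76-fold (1.48 to 2.09) and 1.47-fold (1.27 to 1.70) more in alpha cells, the latter turning below 1 without hormone and mitochondrial totals (0.876 and 0.734).

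Rab27a and Rab37, other granule Rabs, were near balance. Rab27a gave 47.7% and 48.4% of their UMIs in beta, 48.5% and 49.0% in alpha and 60.0% and 58.1% in delta cells. The Rab27a to Rab37 ratio was 1.64-fold (1.34 to 2.01) and 1.48-fold (1.21 to 1.81) higher in delta than in beta cells. Between alpha and beta cells it was 1.03 (0.861 to 1.24) and 1.02 (0.884 to 1.18), so no difference was detectable at this depth, and the alpha-cell intervals (44.0% to 53.0% and 45.5% to 52.5%) give neither gene as leader there.

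Sytl4 (chromosome X, 133936385 to 133981812) encodes granuphilin, a Rab27a effector that docks insulin granules, and was a beta-cell gene. It was at 64.9 and 62.3 CPM in beta, 3.71 and 4.72 in alpha and 5.09 and 7.43 in delta cells. Beta cells had 17.5-fold (11.3 to 28.6) and 13.2-fold (9.53 to 18.9) more than alpha and 12.7-fold (7.45 to 24.0) and 8.39-fold (5.54 to 13.4) more than delta cells. At 5000 UMIs, 27.6% and 25.6% of beta, 1.19% and 2.95% of alpha, 2.20% and 4.44% of delta and 4.02% and 4.17% of endothelial cells held a UMI (86.1% and 82.0%, 5.04% and 5.21%, 4.96% and 6.17%, and 4.58% and 4.92% unthinned). The alpha and delta shares lay near or below the endothelial ones, so no expression in those cells is read from them. Beta-cell RNA in proportion to insulin would amount to 53.4% and 55.6% of the alpha-cell and 52.5% and 42.7% of the delta-cell level.

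Synaptotagmins sense calcium at fusion or, in the case of isoforms without calcium binding, serve trafficking. Syt13 led in every endocrine class, with 53.3% and 52.7% of the UMIs of the 6 synaptotagmins in beta, 40.9% and 38.9% in alpha and 35.9% and 37.2% in delta cells. Syt7, a slow calcium sensor known for insulin and glucagon release, was highest in alpha cells at 24.9% and 27.0%, against 16.2% and 15.5% in beta and 15.8% and 15.2% in delta cells. Syt4 took 25% and 25.3% in beta, 18.9% and 19.6% in alpha and 15.8% and 16.6% in delta cells. The leading isoform was thus the same, and the rest of the profile was not.

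Syt1 (chromosome 10, 108497650 to 109010982), the fast sensor of neurons, was a delta-cell gene in these islets. It was at 0.558 and 0.790 CPM in beta, 7.98 and 10.8 in alpha and 123 and 120.3 in delta cells. Its share of synaptotagmin UMIs was 18.3% (16.5 to 20.2) and 18.6% (16.9 to 20.4) in delta cells, 1.92% and 2.26% in alpha and 0.151% and 0.191% in beta cells. At 5000 UMIs, 43.2% and 44.7% of delta cells held a Syt1 UMI, against 2.39% and 5.37% of alpha and 0.327% and 0.360% of beta cells. None of 448 and 336 endothelial cells held one, which allows up to 0.670% and 0.893%. Unthinned shares were 61.6% and 61.0% of delta, 8.75% and 10.7% of alpha, 2.15% and 2.55% of beta and 0.0849% and 0.100% of endothelial cells.

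Syt5, another calcium-binding isoform of secretory vesicles, was at 8.96 and 14.0 CPM in beta, 22.8 and 21.5 in alpha and 59.5 and 58.8 in delta cells, the order between alpha and beta turning under 3 other scalings in the library labelled BcBKO. Syt11, an isoform that does not bind calcium, was at 11.0 and 12.1 CPM in beta, 32.9 and 36.5 in alpha and 35.2 and 21.3 in delta cells. Its delta level differed between libraries by more than counting error, so it lay near the alpha level in one library and below it in the other. Across 13 alternative settings that library ratio (log2) lay between −0.78 and −0.16. In the library labelled BcBKO the excess of Syt11 in delta over beta cells turned under 3 other scalings.

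Stxbp5l (chromosome 16, 37114942 to 37384962) encodes tomosyn-2, which holds back SNARE assembly, and had the largest fold of the 35 genes between endocrine classes. It was at 0.433 and 0.618 CPM in beta, 30.1 and 25 in alpha and 138 and 111 in delta cells. Delta cells exceeded beta cells 318-fold (237 to 435) and 180-fold (139 to 236), and alpha cells exceeded them 69.5-fold (50.6 to 96.9) and 40.5-fold (30.7 to 53.9). At 5000 UMIs a Stxbp5l UMI was in 46.7% and 44.7% of delta, 15.5% and 10.4% of alpha and 0.218% and 0.229% of beta cells. The endothelial share was 0.223% and 0.298%, from 1 cell in each library, so no expression in beta cells is read from a like share, and the folds over beta cells depend on 52 and 72 beta-cell UMIs whose source was not tested. Unthinned shares were 64.5% and 60.1%, 27.9% and 22.1%, 1.78% and 1.93%, and 0.170% and 0.100% in the same order of classes.

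The SNAP-25 pair had different leaders in endocrine and other cells. Snap25, the neuronal form, gave 80.8% and 84.1% of Snap25 and Snap23 UMIs in beta, 88.3% and 88.2% in alpha and 84.8% and 85.9% in delta cells. Snap23, the widely expressed form, gave 85.5% and 81.8% in endothelial cells, 88.2% and 91.5% in macrophages and 80% and 73.3% in mural cells. Its level was 13.3 and 12.4 CPM in beta cells, 65.3 and 59.5 in endothelial cells and 76.9 and 72.8 in macrophages. Insulin took 4.22% and 4.61% of endothelial UMIs, and the part of free beta-cell RNA in these shares was not tested.

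Vamp2, the vesicle SNARE of regulated release, gave 75.7% and 76.1% of Vamp2 and Vamp3 UMIs in beta, 68.2% and 68.6% in alpha and 78.4% and 71.6% in delta cells. Vamp3, which serves constitutive traffic, was highest in endothelial cells at 117 and 119 CPM, or 69.2% and 70.4%. In mural cells Vamp2 led, as in endocrine cells, with 59.6% and 58.6%. Alpha cells had a Vamp2 to Vamp3 ratio 0.691 times (0.565 to 0.845) and 0.684 times (0.582 to 0.804) that of beta cells. Delta cells gave 1.17 (0.893 to 1.54) and 0.791 (0.632 to 0.989), without a common direction.

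Stx1a, the plasma-membrane SNARE, was low everywhere, at 1.52 and 1.58 CPM in beta, 9.84 and 9.84 in alpha and 9.0 and 8.11 in delta cells. Unc13a (Munc13-1, which primes granules) was at 9.68 and 9.97, 17.1 and 19.0, and 23.9 and 23.3 CPM. Cplx2 (complexin 2, which clamps SNARE complexes) was at 70.1 and 65.4 CPM in beta, 114 and 131 in alpha and 249 and 242 in delta cells. All 3 were lowest in beta cells on the CPM scale, but under TMM factors the excess of Unc13a in delta cells turned. Without hormone and mitochondrial totals those of Unc13a and Cplx2 in alpha cells turned. In the flox/flox library the alpha-cell excess of Cplx2 turned under all 3 other scalings, and that of Unc13a under TMM factors too.

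Ptprn and Ptprn2 encode the granule membrane proteins IA-2 and phogrin, known as autoantigens in type 1 diabetes. Ptprn led in every endocrine class, with 73.2% and 77.7% of their UMIs in beta, 63.5% and 67.0% in alpha and 67.2% and 68.6% in delta cells. The Ptprn to Ptprn2 ratio in alpha cells was 0.637 times (0.557 to 0.728) and 0.580 times (0.520 to 0.647) that in beta cells. Nptx2, a secreted neuronal pentraxin, was almost absent, with 10 and 60 UMIs in beta, 1 and 0 in alpha and 6 and 6 in delta cells. The 0 among 7625534 alpha-cell UMIs allows up to 0.393 CPM.

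**Figure D2:**
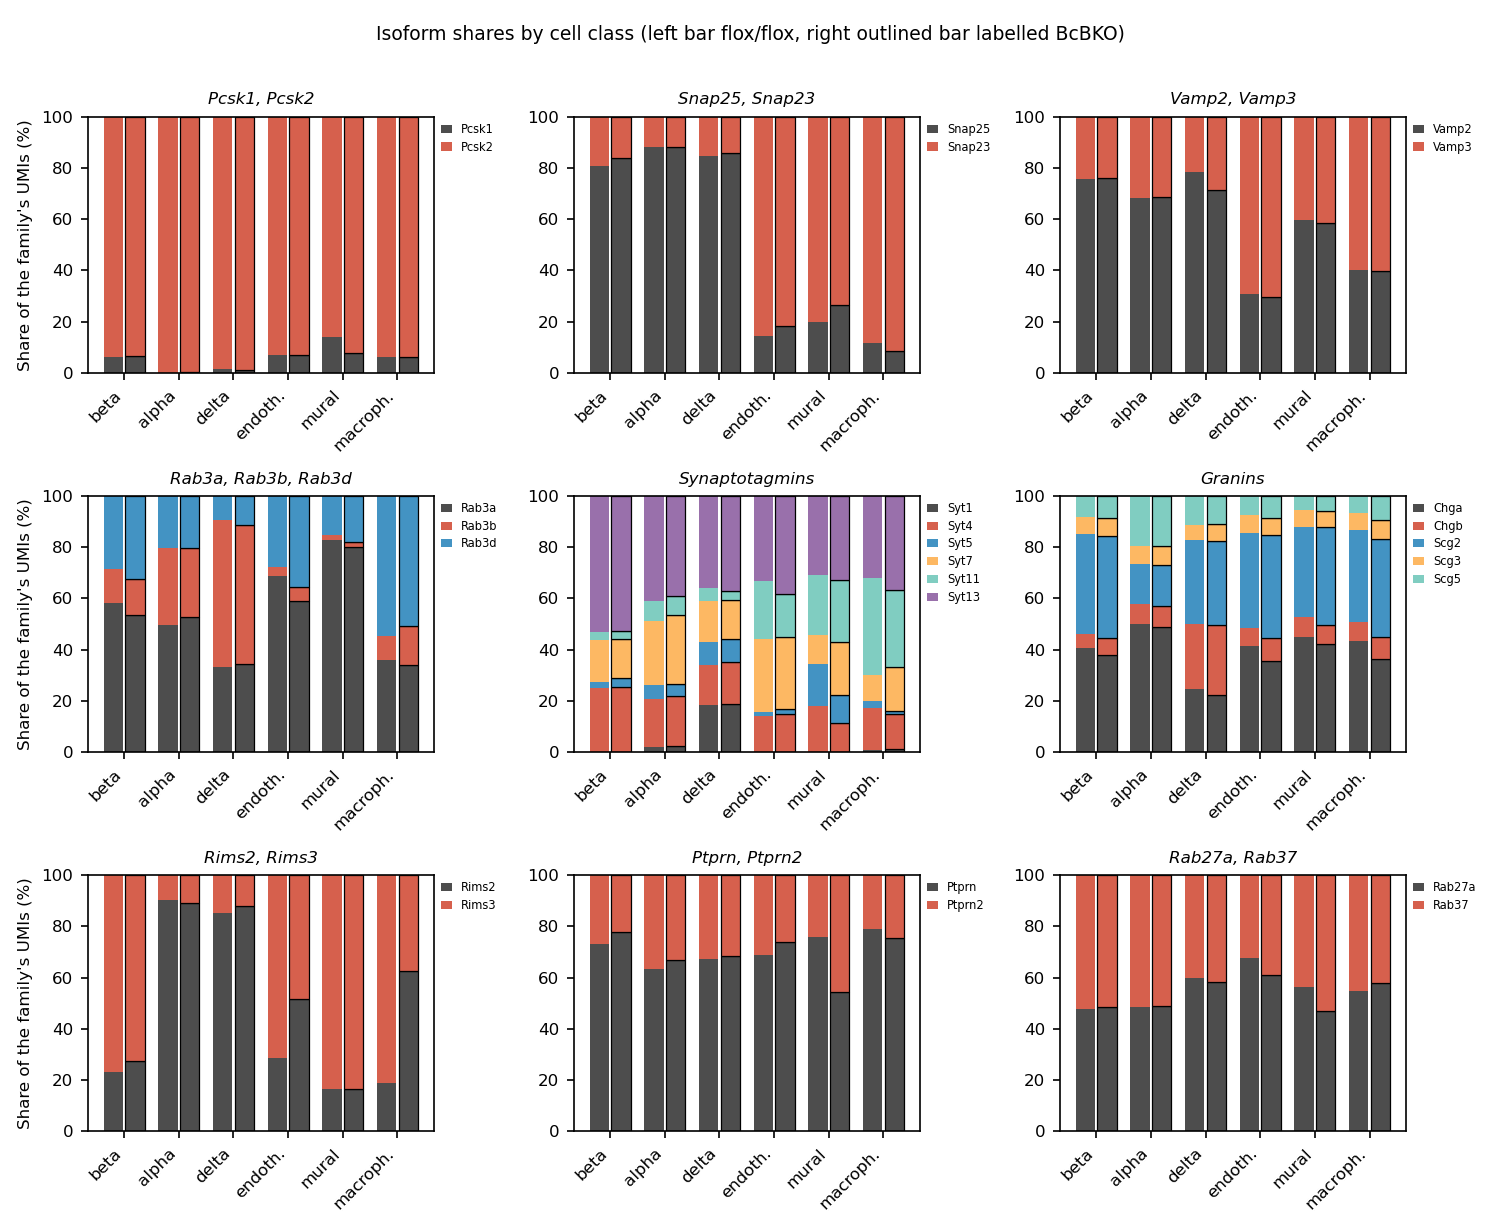
Share of each isoform in the UMIs of its family (%, bars stacked to 100), by cell class, with the flox/flox library as the left bar and the library labelled BcBKO as the right, outlined bar. Rims3 fills most of the beta bars and little of the alpha and delta bars, Rab3b and Syt1 are widest in delta cells, and Snap23 and Vamp3 lead in endothelial cells. In endothelial, mural and macrophage bars the endocrine genes include free RNA.

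In 4 of the 9 families (granins, Rab3, Rims, and Rab27a with Rab37) the leading isoform was not the same in all endocrine classes, in both libraries. For each of the 26 isoforms, the smaller of its 2 gaps between the highest and the lowest class exceeded its largest gap between libraries. For Rab3b those gaps were 39.9 and 3.20 percentage points, for Rims3 61.5 and 4.27, for Syt1 18.1 and 0.341, and for Snap23 only 4.08 and 3.36. For Vamp3 they were 7.56 and 6.83, with the library gap found in delta cells, so Snap23 and Vamp3 separate the classes little more than the libraries. Over 8 alternative settings, one of which kept only the 66 of 242 and 93 of 308 delta cells with under 1% Gcg and Ppy, the delta-cell shares stayed between 55.6% and 58.5% and between 50% and 55.2% for Rab3b. They stayed between 17.5% and 22.4% and between 16.2% and 20.3% for Syt1, and between 24.1% and 26.9% and between 25.5% and 28.1% for Chgb.

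Levels in CPM depend on how much of a class is hormone, which took 70.0% and 68.2% of beta, 41.3% and 38.3% of alpha and 32.7% and 33.4% of delta UMIs. Of 30 genes at 20 CPM or more in alpha or beta cells, 8 were at least 2-fold higher in alpha cells in both libraries (Scg5, Pcsk1n, Pcsk2, Pam, Stxbp5l, Syt11, Rims2 and Ptprn2), or 26.7% beside 33.4% of all 4675 genes compared. In the other direction 4 were at least 2-fold lower (Scg2, Pcsk1, Sytl4 and Rims3), beside 2.25% of all genes. The members' median log2 ratio was 0.70 and 0.62, beside 0.81 and 0.86 for all genes, so the count is below the general shift. With totals that leave out hormone and mitochondrial genes, 1 was higher (Stxbp5l; 4.88% of all genes) and 8 were lower (Scg2, Pcsk1, Syt4, Syt13, Sytl4, Rab3a, Rab3d and Rims3; 8.57%).

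Of 32 genes compared between delta and beta cells, 11 were at least 2-fold higher in delta cells (Chgb, Pam, Stxbp5l, Syt1, Syt5, Unc13a, Rab3b, Rab27a, Rims2, Cplx2 and Ptprn2), beside 61% of all 5743 genes. Lower were 3 (Pcsk1, Sytl4 and Rims3), beside 1.24% of all genes. Without hormone and mitochondrial totals, Chgb, Stxbp5l, Syt1 and Rab3b made up the 4 that were higher (7.01% of all genes), and 6 were lower (Chga, Pcsk1, Syt4, Sytl4, Rab3d and Rims3; 4.54%). On that scale Rab3b was 4.62-fold and 3.80-fold and Chgb 3.27-fold and 2.74-fold over beta cells. The other 7 stayed under 2-fold in 1 or both libraries there.

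At 20 CPM 30 genes were compared between delta and alpha cells, and 7 were at least 2-fold higher in delta cells (Chgb, Scg2, Pcsk1, Stxbp5l, Syt1, Syt5 and Rab3b), beside 9.05% of all 5866 genes, with none lower, beside 2.06%. The same 7 were higher without hormone and mitochondrial totals, beside 7.56% of all genes, and none were lower, beside 2.55%. Under TMM and under DESeq2 factors 5 were higher, with Pcsk1 at a log2 ratio of 0.94 and 0.97 in the library labelled BcBKO and Syt5 at 0.90 and 0.91 in the flox/flox library. The share over all genes was not computed under those factors, so this count has no general level beside it. The largest of the 7 in CPM was Syt1, at 15.4-fold (11.2 to 21.7) and 11.2-fold (8.78 to 14.4).

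A list of 91 other secretory genes was chosen by role. Of these, 12 of 41 were at least 2-fold higher and 2 lower in alpha than in beta cells, 21 and 3 of 44 in delta than in beta cells, and 5 and 4 of 46 in delta than in alpha cells. The shares over all genes were those given above, 33.4% and 2.25%, 61% and 1.24%, and 9.05% and 2.06%, so the first 2 counts of higher genes lie below the general level. Rab3c, a further Rab3 isoform, was at 42.7 and 40.3 CPM in alpha and 0.466 and 0.653 CPM in beta cells, which is 91.6-fold and 61.7-fold. Sv2b, a vesicle glycoprotein, was 18.4-fold and 25.2-fold over beta in alpha cells, and Nptx1, a pentraxin related to Nptx2, 12.0-fold and 9.28-fold. Cadm1, an adhesion protein, was 47.7-fold and 21.3-fold, and the exocyst subunit Exoc6 12.7-fold and 9.07-fold, over beta in delta cells. Between delta and alpha cells, Erc2 (an active-zone protein) was 6.77-fold and 6.87-fold higher in delta cells. Slc30a8 (the granule zinc transporter) was 10.4-fold and 10.2-fold, and Cadps (which primes granules) 6.19-fold and 5.49-fold, higher in alpha cells.

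Between the libraries, beta cells differed by little in most of these genes. At 20 CPM or more, 24 members were compared, 18 had a positive log2 ratio of the library labelled BcBKO over flox/flox beside 71.1% of all genes, and the median was 0.11, beside 0.060 for all 2938 genes. Past a log2 ratio of 0.25, 5 were higher (beside 6.19% of all genes) and 1 was lower (beside 1.87%). Ptprn was at 75.1 and 104 CPM (log2 0.47, interval 0.43 to 0.51), Pam at 158 and 211 CPM (0.42, 0.39 to 0.45) and Chgb at 359.7 and 453 CPM (0.33, 0.32 to 0.35). Rab3d was at 33.3 and 41.6 CPM (0.32, 0.26 to 0.38), and Pcsk1 at 87.5 and 109 CPM (0.31, 0.28 to 0.35). Rims3 was the gene lower under the BcBKO label, at 25.6 and 19.6 CPM (log2 −0.38, −0.46 to −0.30). On totals without hormone and mitochondrial genes Pcsk1 was at 0.245, below the limit, which left 4 genes higher, with Rab3d at 0.251, Ptprn at 0.40 and Rims3 at −0.45. The share of all genes past the limit was not computed on that scale.

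Below the minimum, Syt5 was at 8.96 and 14.0 CPM in beta cells (log2 0.64, 0.53 to 0.75). Nptx2 had its 10 and 60 UMIs in 9 and 41 beta cells, and the ratio was 6.19 (3.15 to 13.6). The highest cell under the BcBKO label held 5 of the 60.

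Alpha cells had 27 members compared, with a median log2 ratio of 0.085 beside 0.098 for all 4793 genes. Higher by at least 0.25 were 3, Syt7 (103 and 129 CPM, log2 0.32), Ptprn (121 and 146 CPM, 0.27) and Syt4 (78.3 and 93.5 CPM, 0.26), beside 19.2% of all genes, so this count is no more than the general level. Stxbp5l was lower (30.1 and 25 CPM, −0.26, −0.57 to 0.05), beside 3.03% of all genes. Pcsk1, at 23 and 83 UMIs, was below the minimum and 1 cell held 14 of the 83.

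Delta cells had 30 members compared, with a median of −0.034 beside −0.017 for all 5984 genes. Vamp3 was higher under the BcBKO label (27.0 and 38.2 CPM, log2 0.50, 0.05 to 0.95), beside 12.8% of all genes. Lower were 4, beside 15.8% of all genes, namely Syt11 (35.2 and 21.3 CPM, −0.73, −1.22 to −0.25), Pcsk1 (38.8 and 27.0 CPM, −0.52, −0.96 to −0.08), Stxbp5l (138 and 111 CPM, −0.31, −0.53 to −0.08) and Chga (2630 and 2204 CPM, −0.25, −0.30 to −0.21). These shares are near or below the background. Acinar markers, a sign of free exocrine RNA, moved with the library in every class, all 6 being detected in each and their sum at 129 and 21.6 CPM in beta, 366 and 69.0 in alpha and 648 and 187 in delta cells. Their part in the library differences was not tested.

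**Figure D3:**
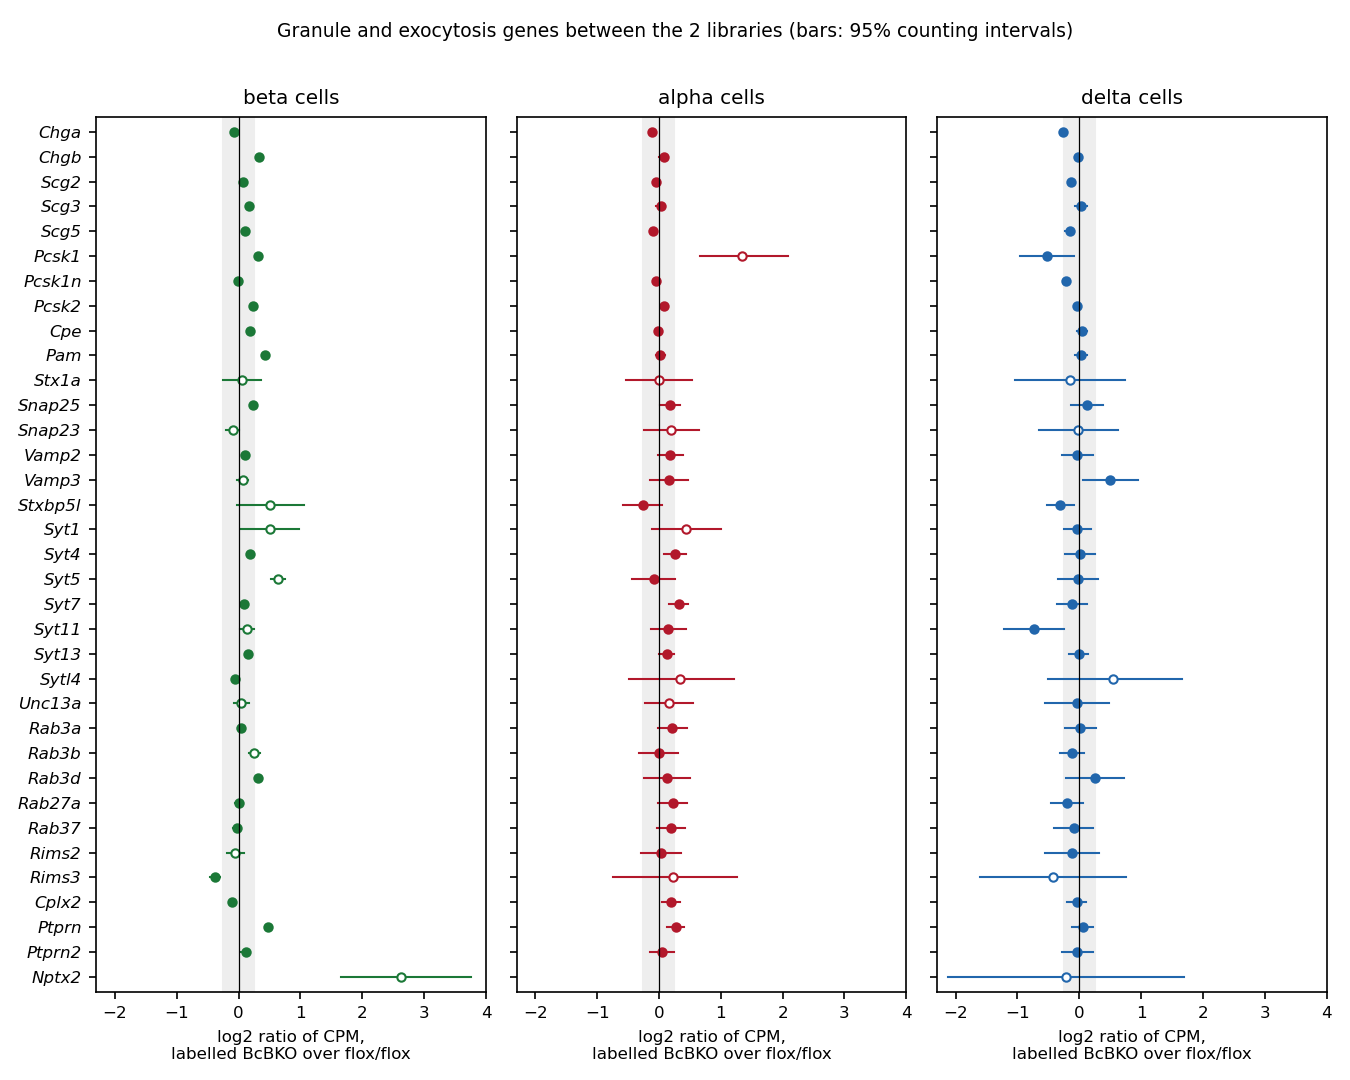
Log2 ratio of CPM, library labelled BcBKO over flox/flox, for each gene in beta, alpha and delta cells, with 95% counting intervals. Filled points passed 20 CPM in either library, open points did not, and the grey band marks ratios within 0.25. Beta-cell points lie mostly inside or just right of the band, with Rims3 to its left, and Nptx2 stands far right on few UMIs.

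Variation among beta cells was set beside that of genes of like abundance. With each cell thinned to 10000 UMIs, the variance over the mean was 1.46 and 1.80 for Scg3, beside medians of 1.38 and 1.53 for genes within 1.5-fold of its mean. Pcsk1 was at 1.21 and 1.37 beside 1.07 and 1.09, and 44.1% and 38.3% of beta cells held none of its UMIs at that depth. Chgb was at 8.73 and 6.23, beside 1.35 and 1.52, above 108 of 108 and 97 of 100 genes of like mean. Chga was at 8.93 and 9.41, but only 5 and 3 genes were as abundant.

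Few cells held much of the spread of Chgb. Its median was 3 and 4 UMIs per cell and its 90th percentile 6 and 8, while the highest cells held 220 and 95. Cells with 20 or more numbered 26 (0.945%) and 49 (1.60%), a limit chosen after the values were seen. Without them the variance over the mean of Chgb was 1.87 and 2.25. A fall follows from choosing the cells by Chgb itself, and no other gene was cut by its own highest cells for comparison. These cells had a lower insulin share of UMIs, 43.8% and 45.5% against 64.4% and 62.2% in the others, and its part in the levels of other genes was not tested. Chga was higher in them, with a mean of 95.1 and 63.7 UMIs against 27.7 and 26.2 in the others, while over all beta cells its rank correlation with Chgb was weak (Spearman 0.069 and 0.078 across 2750 and 3058 cells, which share a library). Scg5 was at 14.0 and 12.8 against 5.41 and 5.69, and Scg3 at 10.5 and 10.5 against 4.38 and 4.87.

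**Figure D4:**
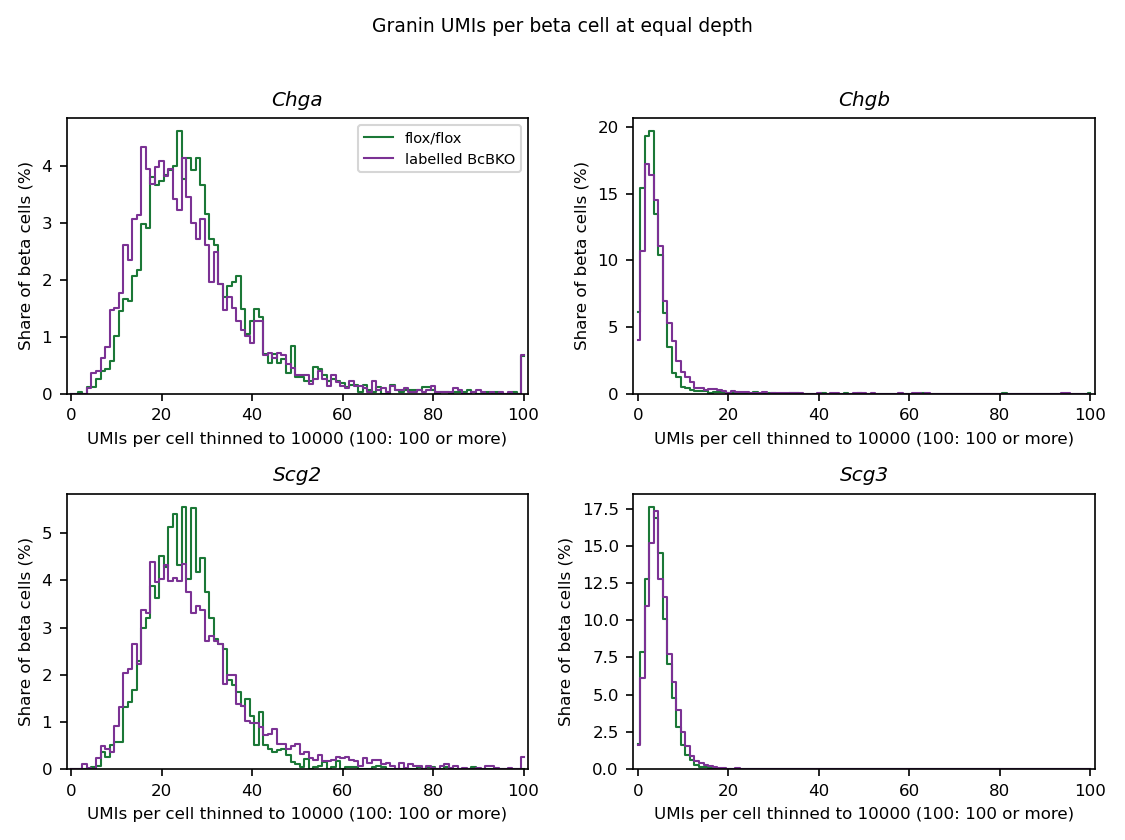
Share of beta cells (%) by the number of UMIs of Chga, Chgb, Scg2 and Scg3 per cell thinned to 10000 UMIs (cells with 100 or more are pooled in the last bin), with the flox/flox library in green and the library labelled BcBKO in purple. The Chgb and Scg3 distributions peak below 5 UMIs, and Chgb has a long thin tail that Scg3 lacks.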

How the data were processed

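Each library's matrix, as deposited by the authors, holds raw UMI counts (whole numbers, not normalised). Per the submitters' processing notes, Cell Ranger 3.1.0 and Seurat 4.0.0 were used with mm10; the matrix header names counting software of version 6.1.2, a conflict that these sources do not settle. The flox/flox matrix held 9438 barcodes and 167670996 UMIs, the matrix labelled BcBKO 10775 and 178647270. Barcodes with at least 500 genes, at least 1000 UMIs and at most 20% mitochondrial UMIs were kept (7568 and 8504). Beta cells also had at least 10000 UMIs and under 1% each of Gcg, Sst and Ppy. All other classes had under 15% insulin UMIs, with endothelial cells at 3 or more Plvap and Cdh5 UMIs, mural cells at 5 or more Rgs5 and Pdgfrb UMIs and macrophages at 5 or more C1qa and C1qb UMIs. Barcodes that met several class rules (629 and 595, of which 569 and 498 endothelial and mural) were left out. Scrublet, in scanpy 1.11.5 with an assumed rate of 8%, called 170 (2.25%) and 177 (2.08%) doublets; they were kept, and their removal was an alternative.

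UMIs were summed per class and library, with no replicates and no test. Intervals are at 95%, exact Poisson for CPM, Clopper-Pearson for shares, exact conditional for ratios and Woolf for ratios of isoform ratios, and a count of 0 allows 3 counts. They cover counting error and leave out differences between mice or preparations. The procedure was tested on simulated data. Python 3.11.15, numpy 2.4.6, scipy 1.17.1 and pandas 2.3.3 were used, with edgeR 4.0.16 and DESeq2 1.42.0 in R 4.3.3 for scaling factors alone. Promoters came from RefSeq for GRCm38.p6 and gene positions from GENCODE gene models (GRCm38).

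All members are accounted for; values are given for the isoform families, for members at least 2-fold apart between classes in both libraries or at least 0.25 apart (log2) between libraries, and for the 8 other secretory genes with the largest class ratios. The members and lists were chosen with earlier results of these data known. Alternatives were a stricter cell filter, doublet removal, hormone limits, depth, cell weights, a subtraction of beta RNA, 3 scalings, a pseudocount of 1 CPM and other minimum levels. Keeping barcodes of several classes, and other hormones under 1% in every class, were alternatives chosen after seeing the data.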

Additional observations from a re-analysis of the deposited data

Results flagged for a closer look

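Pcsk1 moved in opposite directions between the libraries in 2 endocrine classes. Its log2 ratio of the library labelled BcBKO over flox/flox was 0.31 in beta cells (10515 and 12673 UMIs) and −0.52 in delta cells (99 and 80 UMIs, interval −0.96 to −0.08). The difference between the classes was not tested, since each group is 1 library. Across 13 alternative settings the beta value stayed between 0.245 and 0.32, under 0.25 without hormone and mitochondrial totals, and the delta value between −0.69 and −0.42.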

How the results depend on the processing

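No paired analysis was possible because each group is 1 library; for the same reason no replicate could be left out. Between classes, totals without hormone and mitochondrial genes, TMM factors and DESeq2 size factors each gave 1 gene higher in alpha than beta cells in place of 8, 8 lower in place of 4, and 4 higher in delta than beta cells in place of 11; the genes lower in delta cells numbered 6, 7 and 6 in place of 3. These scalings moved the median of all genes by up to −1.34 (log2). Genes higher in delta than alpha cells numbered 5 in place of 7 under TMM and DESeq2 factors. Under TMM factors Unc13a turned from 1.30 and 1.23 (log2, delta over beta) to −0.041 and −0.049. A minimum of 50 CPM left 5 genes higher in alpha cells, and requiring other hormones under 1% left 1 lower in delta than beta cells. Apart from the main setting, shares over all genes were computed only for totals without hormone and mitochondrial genes. The other counts have no general level beside them.

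Between libraries, totals without hormone and mitochondrial genes gave 4 beta genes higher in place of 5, with Pcsk1 lost. No minimum level gave 10 beta genes higher (in place of 5), 6 alpha genes higher (in place of 3) and 2 lower (in place of 1), and 2 delta genes higher (in place of 1). A minimum of 50 CPM gave 0 beta genes lower (in place of 1), 0 alpha genes lower, 0 delta genes higher and 2 delta genes lower (in place of 4). Alpha genes higher numbered 1 without hormone totals, 0 under TMM factors, 0 under DESeq2 size factors and 6 as a mean over cells, and alpha genes lower numbered 0 under the stricter cell filter and 0 at 10000 UMIs or more. Delta genes higher numbered 2 under the stricter filter, without doublets, under each of the 3 scalings and with barcodes of several classes kept; with other hormones under 1%, 5 were higher and 7 lower. Shares over all genes were not computed under these settings, so none of these counts is read against a general level. The cause of these shifts was not tested.

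The number of families whose leader differs between endocrine classes stayed at 4 under every alternative run. Rims3 shares stayed between 76.6% and 76.8% in beta and 9.23% and 22.5% in delta cells of the flox/flox library, and Rab3b shares between 50% and 58.5% in delta cells of both libraries. Depth limits the delta and alpha values, which rest on 2554590 to 7625534 UMIs per class, against at least 116428063 in beta cells.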

Other observations

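The beta cells with 20 or more Chgb UMIs (26 and 49 cells, chosen by Chgb after its values were seen) differed from the other beta cells in genes beyond the granins. Their sums come from all UMIs of the cells, with no test. Insulin took 43.8% and 45.5% of their UMIs against 64.4% and 62.2% in the other beta cells, and their median depth was 22562.5 and 23836 UMIs against 38498.5 and 33356. Other genes rise on such a scale when the insulin share falls, and that part was not separated. On that scale the beta-cell factor Nkx6-1 was at 178.5 and 165.4 CPM against 138.3 and 138.1, and Iapp was 1.36-fold and 1.42-fold higher. With the insulin share so much lower, neither is read as a rise relative to the other genes of these cells.

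Tmem27, Gnas and Pyy are named because their ratios were among the largest of the well-detected genes, so their folds are picked extremes. Tmem27, a beta-cell membrane protein, was at 816.7 and 816.5 CPM in these cells against 165.7 and 214.3, and all 26 and 49 cells held it. Gnas, which encodes the stimulatory G protein subunit, was 3.03-fold and 3.26-fold higher, and Pam 3.69-fold and 2.63-fold. Pyy and Ppy, hormones of pancreatic polypeptide cells, were 9.87-fold and 4.03-fold and 9.90-fold and 2.80-fold higher, with 1 cell holding 693 of 1386 and 491 of 1790 Pyy UMIs. For Ppy the highest cell held 477 of 1320 and 179 of 946 UMIs. Sytl4 went the other way, at 21.5 and 35.8 CPM against 65.2 and 62.6. So did Rims3, at 19.0 and 11.9 CPM (15 and 15 UMIs) against 25.6 and 19.7.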
